A study of Homo sapiens with 15 samples.

Results

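The sites described here are FOXA1 binding sites of 22Rv1 cells that were still called after knockdown of FOXA1. They are the peaks of the control small interfering RNA (siControl) list that overlapped, by 1 bp or more, a peak of the list made with a small interfering RNA against FOXA1 (siFOXA1). There were 1310 such surviving sites among 34119 siControl peaks (3.84%, 95% Wilson interval 3.64 to 4.05%). The other 32809 siControl peaks are called lost. The sites were chosen by their calls in the siControl and siFOXA1 lists, so their values there are a description with no test, and the other 10 FOXA1 lists of the series are measurements that the choice did not use.

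FOXA1 is a forkhead transcription factor of the pioneer class. Such factors bind their DNA motif on nucleosomes, make the site accessible and let other factors follow, and in prostate cells FOXA1 is known for preparing enhancers for the androgen receptor. A small interfering RNA lowers the messenger RNA of its target, so a ChIP peak that is still called after knockdown marks DNA that the FOXA1 antibody still enriched. The level of FOXA1 protein left after knockdown was not analysed here.

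The cells, 22Rv1, are an established line from a human carcinoma of the prostate. Among 15 samples there were 12 FOXA1 ChIP-seq libraries, each with 1 peak list, and 3 inputs, not analysed here. Parental cells gave 6 lists: siControl, siFOXA1, DMSO at 0.1%, PladB, and the stereoprobes WX-02-23 and WX-02-43 at 20 µM. PladB is pladienolide B, which binds the splicing factor complex that contains PHF5A. Its dose in parental cells is 100 nM in the sample's own label and 10 nM in the shared protocol. The other 6 lists came from engineered cells that stably overexpress the Y36C form of PHF5A and carry a doxycycline-inducible FOXA1, wild type (WT) in one line and C258A in the other. Each engineered line was profiled with DMSO and no doxycycline, with doxycycline and DMSO at 0.1%, and with doxycycline and WX-02-23 at 20 µM. Compounds were given for 3 h. The labels give neither a dose nor a time for doxycycline or the small interfering RNAs, do not say whether a line is 1 clone, and name no tag that would separate induced from endogenous FOXA1 in the ChIP.

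With 1 library for every condition, differences between conditions have no replicate check and no p-value is given. The 95% intervals reflect counting error alone, as if peaks were independent. The lists held between 3018 (siFOXA1) and 34119 (siControl) peaks, with no score below 90. Read totals were not analysed here, so the depth behind each list is unknown. Positions are in hg19, and genes and sequences at the sites were not analysed here.

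The surviving sites were mostly strong siControl peaks. Their median siControl score was 1080.7 (interval 1036.46 to 1129.46), with quartiles of 657.8 and 1552.03, against a median of 217.1 for lost peaks with quartiles of 131.5 and 435.0. The score is the authors' own value per peak, is not defined in the sources used here, and lists share no known scale, so it was read within a list except where stated. Of the surviving sites, 750 lay in the top decile of siControl scores (954.1 and above), a decile being 1 of 10 groups of equal size by score, 289 in the next decile and 84 in the one after. The remaining 187 were spread over the lower 7 deciles, with between 19 and 35 sites in each. The share of peaks that survived was 22.0% in the top decile, 8.47% in the next, 2.46% in the one after and 1.03% or less in each of the lower 7.

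Many of the strongest siControl peaks were lost. The strongest siControl peak, chr5:54483997-54485567 with a score of 3228.29, had no siFOXA1 peak and was called in all 10 other lists. The second, chr11:27226225-27227571 with a score of 3223.52, was lost as well and called in the same 10 lists. The fourth, chr12:62913033-62914631 with a score of 3210.49, was also lost and called in all 10 others. In the top decile 2661 peaks were lost.

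Within the siFOXA1 list, peaks at surviving sites had a higher median score than the other peaks. The 1333 siFOXA1 peaks at surviving sites had a median score of 161.8, with quartiles of 113.6 and 255.2. The other 1685 siFOXA1 peaks, which met no siControl peak, had a median of 117.7 with quartiles of 100.4 and 161.2. At 1020 surviving sites a whole siFOXA1 peak lay inside the siControl peak. The midpoints were within 100 bp of each other at 807 sites (61.6%), and the median distance between them was 73.8 bp. Overlap was the condition of the choice, so this closeness is partly set by it and is a description. With a reciprocal overlap of 50%, 819 of the 1310 sites remained.

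Membership rarely hung on the edge of a peak. Only 4 sites had an overlap under 50 bp, and the smallest was 6 bp at chr11:100351511-100352290. Just outside the rule, 45 lost peaks lay within 500 bp of a siFOXA1 peak. The nearest, chr1:145355414-145357142, was 14 bp away and had a siControl score of 94.4. Some sites share a siFOXA1 peak and are not separate observations: 10 siFOXA1 peaks covered more than 1 site each, 26 sites in all.

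Most surviving sites were called in each of the 4 other parental lists, and only with WX-02-23 did their share differ from that of equally strong lost peaks by more than 10 points. To compare like with like, lost peaks were weighted so that each decile of siControl score held the share it holds among surviving sites. With DMSO 1185 surviving sites were called (90.5%, 88.8 to 91.9%), against 95.9% of score-weighted lost peaks and 78.5% of all siControl peaks. With PladB the numbers were 1207 sites (92.1%), against 97.1% of weighted lost peaks and 84.6% of all. The difference from weighted lost peaks was -5.48 points with DMSO (-7.19 to -4.00) and -4.98 points with PladB (-6.57 to -3.64). These small differences were not stable: without runs of neighbouring surviving sites they were -2.24 and -2.17 points, with the siControl list reduced to its higher-scoring 50% they were -1.57 and -1.04, and with DMSO peaks as the base the PladB difference was 0.382. No direction is read from them. Nearly all of the missing calls belonged to the weak sites. In the top 3 deciles of score 99.3% of surviving sites were called with DMSO and 99.6% with PladB. In the lower 7 deciles 37.4% and 47.1% were called, against 69.6% and 78.2% of the lost peaks there, not weighted for score.

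With WX-02-23 surviving sites were called more often than weighted lost peaks. Of the surviving sites, 1228 were called with WX-02-23 (93.7%, 92.3 to 94.9%), against 82.7% of weighted lost peaks and 43.2% of all siControl peaks. With WX-02-43, 1215 were called (92.7%, 91.2 to 94.0%), against 89.5% of weighted lost peaks and 50.5% of all. The difference from weighted lost peaks was 11.1 points with WX-02-23 (9.53 to 12.3) and 3.26 points with WX-02-43 (1.72 to 4.56). With each surviving site set against its nearest lost peak by score, the WX-02-43 difference was 2.52 points (0.298 to 4.58), and with the siControl list reduced to its higher-scoring 50% it was 1.14, so no direction is read from it. When survival and the calls both needed a reciprocal overlap of 50%, the differences were 17.7 points with WX-02-23 and 6.81 with WX-02-43. In lists of equal length they were 21.7 and 8.59 points. Of the 1185 sites called with DMSO, 1167 (98.5%, 97.6 to 99.0%) were also called with WX-02-23, against 85.7% for weighted lost peaks, and 1166 (98.4%) with WX-02-43, against 92.9%. In the ninth decile of score 98.6% of surviving sites and 85.9% of lost peaks were called with WX-02-23. In the lower 7 deciles these shares were 60.4% and 25.1%, not weighted for score.

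Ranks within each list were compared as well. Among sites called with WX-02-23, the median percentile of score within that list was 88.7 for surviving sites and 76.5 for weighted lost peaks. With WX-02-43 the medians were 89.8 and 82.2. With DMSO they were 88.1 and 90.5, and with PladB 90.1 and 91.0. In the stereoprobe lists the median surviving site thus stood above the median weighted lost peak, and in the DMSO and PladB lists the medians were within 3 points of each other.

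**Figure D1:**
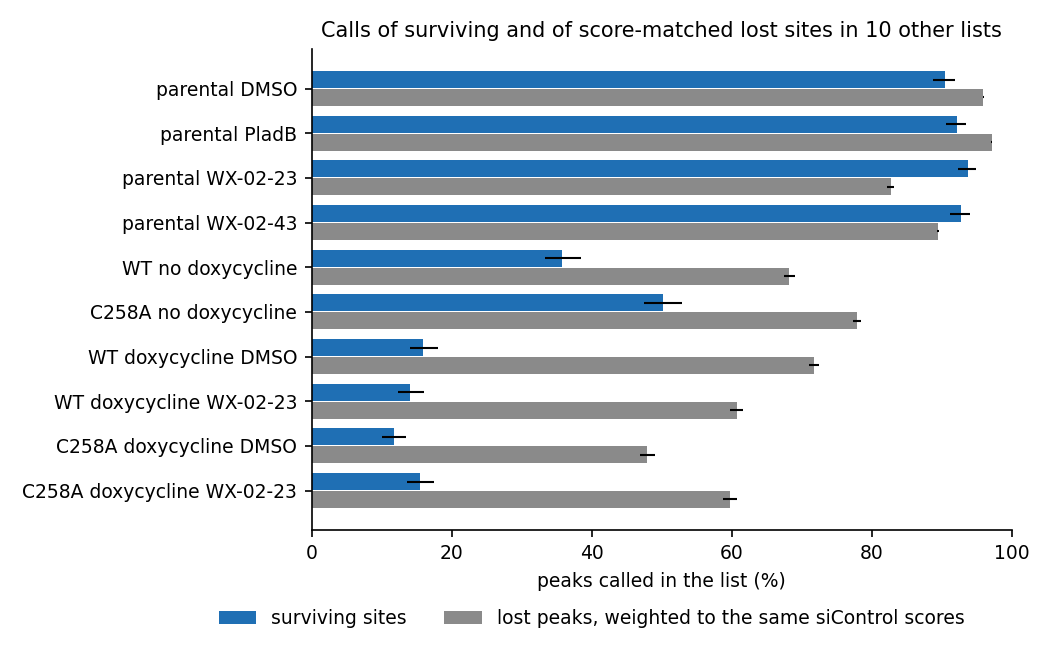
Share of peaks (x axis, percent) called in each of 10 lists (y axis) for the 1310 surviving sites (blue) and for lost peaks weighted to the same siControl scores (grey), with 95% intervals for counting error. Surviving sites lie above the lost peaks by 11.1 points with WX-02-23, within about 5 points of them in the other parental lists and below them in the engineered lists, by the most in WT cells with doxycycline and DMSO (15.9% against 71.8%).

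In the engineered lines, surviving sites were called less often than equally strong lost peaks. Without doxycycline, 469 surviving sites were called in WT cells (35.8%, 33.2 to 38.4%), against 68.2% of weighted lost peaks and 23.9% of all siControl peaks. In C258A cells without doxycycline 658 were called (50.2%, 47.5 to 52.9%), against 77.9% and 34.3%. The C258A list is the longer of these, with 12752 peaks against 8575. These differences depended on the overlap rule: they were -32.4 points in WT and -27.7 in C258A cells. They were -7.32 and -18.2 when survival and the calls in these lists both needed a reciprocal overlap of 50%. Which change moved them was not tested.

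With doxycycline the shares were lower still. In WT cells with DMSO 209 surviving sites were called (15.9%, 14.1 to 18.0%), against 71.8% of weighted lost peaks and 33.6% of all siControl peaks, a difference of -55.8 points (-57.8 to -53.6). That list held 31735 peaks, nearly as many as siControl. In WT cells with WX-02-23, 184 were called (14.05%), against 60.7% and 26.5%. In C258A cells 153 were called with DMSO (11.7%), against 47.9% and 15.7%, and 202 with WX-02-23 (15.4%), against 59.8% and 23.4%. The surviving sites lay below weighted lost peaks by -46.6, -36.3 and -44.4 points in those 3 lists. With a reciprocal overlap of 50% for survival and calls alike, the differences were -29.1, -20.5 and -30.2 points.

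The same sites can be followed within a line. Of the 469 surviving sites called in WT cells without doxycycline, 200 (42.6%, 38.3 to 47.2%) were called with doxycycline and DMSO, against 89.3% for weighted lost peaks. Only 9 of the 1310 surviving sites were called with doxycycline and not without it, against 10.9% of weighted lost peaks. In C258A cells 153 of 658 (23.3%, 20.2 to 26.6%) were called after induction, against 59.6%. None was called only with it, against 1.48% of weighted lost peaks. The weights match siControl score and not strength in the uninduced line. Surviving sites called without doxycycline had a median percentile of 53.7 in WT cells, against 74.4 for weighted lost peaks. In C258A cells the medians were 47.3 and 79.4, so these comparisons start from peaks of unlike strength. With WX-02-23 added, in WT cells 164 sites were held by both the DMSO and the WX-02-23 list, 45 by the DMSO list alone and 20 by the WX-02-23 list alone. In C258A cells the numbers were 146, 7 and 56. Of surviving sites in the DMSO list, 78.5% in WT cells were also called with WX-02-23, against 80.8% for weighted lost peaks. In C258A cells these shares were 95.4% and 95.7%.

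The differences had the same direction in lists of equal length. With each of the 10 lists reduced to its 8575 highest-scoring peaks, the length of the shortest, 10.4% of surviving sites were called in WT cells with doxycycline and DMSO, against 41.1% of weighted lost peaks. In the other 3 doxycycline lists the shares were between 9.39% and 10.0%, against 34.8% to 37.4%. With WX-02-23 in parental cells the shares at that length were 87.3% and 65.6%.

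In all, 1061 surviving sites (81.0%) were called in no doxycycline list, against 24.3% of weighted lost peaks and 61.5% of all siControl peaks. All 4 doxycycline lists held 140 (10.7%), against 42.7% and 12.9%. Seen the other way, survival differed with these calls among peaks of the same score decile. In the top decile of siControl scores 724 peaks were called in none of the 4 doxycycline lists, and 523 of these (72.2%, 68.9 to 75.4%) survived knockdown. Of 921 peaks called in 1 to 3 of those lists, 89 survived (9.66%, 7.92 to 11.7%). Of 1766 called in all 4, 138 survived (7.81%, 6.65 to 9.16%). In the ninth decile the corresponding shares were 21.6%, 1.42% and 0.240%. No surviving site of the lower 7 deciles was called in any doxycycline list.

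The DMSO library gave a second baseline that the choice of sites did not use. In the top decile of DMSO scores, 285 of 424 peaks called in no doxycycline list overlapped a siFOXA1 peak (67.2%, 62.6 to 71.5%), against 137 of 1778 called in all 4 (7.71%, 6.55 to 9.04%). The siFOXA1 list is common to both baselines, and 1182 of the 1199 DMSO peaks that survived were siControl peaks too, so this repeats the pattern with another control library and not with another knockdown. It was added after the values above were seen.

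**Figure D2:**
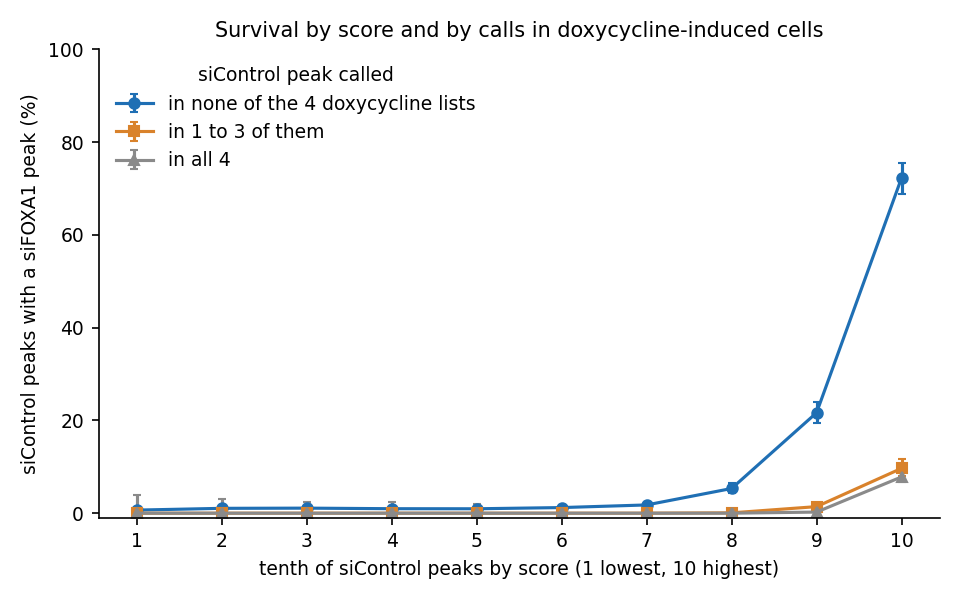
Share of siControl peaks that overlap a siFOXA1 peak (y axis, percent) by decile of siControl score (x axis), for peaks called in none, in 1 to 3 or in all 4 of the doxycycline lists, with 95% Wilson intervals. In the top decile the peaks called in no doxycycline list reach 72.2%, and the other lines stay under 10%, at 9.66% and 7.81%.

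By their calls elsewhere the surviving sites fell into 3 main kinds. These kinds were set after the calls had been seen and are a description. The first kind, 908 sites (69.3%), was called in all 4 other parental lists and in no doxycycline list, a pattern that 13.1% of all siControl peaks have. The second, 139 sites (10.6%), was called in all 10 other lists, as 7.75% of all siControl peaks are. The third, 153 sites, was called in at most 3 of the 4 other parental lists and in no doxycycline list, and 40 of these were called in none of the 10 other lists (3.05% of sites, against 8.41% of all siControl peaks). The other 110 sites, apart from 1, were called in all 4 other parental lists and in 1 to 3 doxycycline lists.

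Sites of the first kind were strong in every parental list. Their median percentile of score was 86.1 with DMSO, 88.6 with PladB, 88.1 with WX-02-23 and 88.7 with WX-02-43. Without doxycycline 239 of them (26.3%) were called in WT and 421 (46.4%) in C258A cells, where their median percentiles were only 28.2 and 34.1. So the sites of this kind that the uninduced lines shared with parental cells were weak peaks there. Sites of the second kind had median percentiles of 96.6 and 97.8 in the same lists. In the whole siControl list, 20.3% (19.1 to 21.5%) of peaks with the calls of the first kind survived. Of peaks with the calls of the second kind, 5.26% (4.47 to 6.175%) survived.

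Examples of the first kind, taken after their values were seen, show the calls site by site. The site chr8:1555642-1556601 had a siControl score of 2420.69 (rank 356 of 34119) and a siFOXA1 score of 501.5 (rank 158 of 3018). It ranked 795 with DMSO, 1066 with PladB, 303 with WX-02-23 and 198 with WX-02-43. In C258A cells without doxycycline it ranked 5599 of 12752, and the other 5 engineered lists did not hold it. The site chr4:21160862-21162063 had a siControl score of 2325.28 and a siFOXA1 score of 577.8. Its rank was 1399 with DMSO and 160 with WX-02-23, and it was called without doxycycline in both engineered lines and in no doxycycline list.

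Sites of the second kind were among the strongest siControl peaks. Their median siControl score was 2846.74, and 56 of the 139 had a score of 3100 or more. The strongest surviving site, chr5:19880353-19881857, belonged to this kind, with a siControl score of 3219.64 (rank 3) and a siFOXA1 score of 203.6 (rank 751). It ranked 28 with DMSO, a rank shared by 248 peaks tied at a score of 3100, 469 with WX-02-23 and 97 with WX-02-43. Without doxycycline it ranked 32 in WT cells and 6 in C258A cells, the latter shared by 45 peaks tied at 3100. With doxycycline and DMSO it ranked 114 and 115. Next came chr4:40191513-40194465, with scores of 3171.07 and 178.4. The others of the first 5 by siControl score were chr1:147083710-147085100 (3131.49 and 92.7), chr17:78733921-78735237 (3126.34 and 134.5) and chr11:108463831-108465137 (3115.73 and 147.5). All 5 were called in all 10 other lists.

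The kinds differed in how the scores of both lists related. Over the 908 sites of the first kind, Spearman's rho between siControl and siFOXA1 score was 0.69. With the scores of the other parental lists it was 0.58 (DMSO), 0.63 (PladB), 0.73 (WX-02-23) and 0.71 (WX-02-43). Over the 139 sites called everywhere rho was 0.31, and over the 153 sites of the third kind it was -0.01. These are descriptions across sites, which all come from the same single libraries, and carry no p. The median siFOXA1 score was 172.4 for the first kind, 126.2 for the second and 241.5 for the third, while the median siControl scores were 1048.78, 2846.74 and 146.6. The kind with the highest median siControl score thus had the lowest median siFOXA1 score of the 3.

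**Figure D3:**
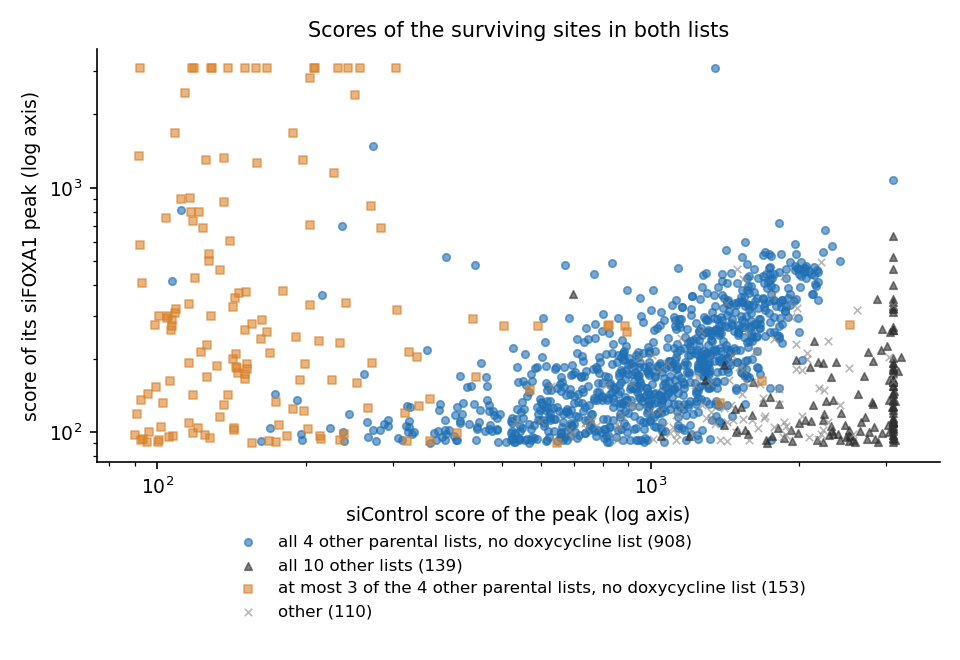
Score of each surviving site in the siControl list (x axis, log) and of its highest siFOXA1 peak (y axis, log), by calls in the other lists. The 908 sites called in all other parental lists and no doxycycline list form a rising cloud, the 139 sites called everywhere lie to the right at low siFOXA1 scores, and the 153 weakly called sites on the left include 15 of the 16 sites at a siFOXA1 score of 3100.

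In the third kind the knockdown list often held the higher score, a comparison across lists that share no known scale. At 98 of the 153 sites the siFOXA1 score was above the siControl score, against 8 of the 908 and none of the 139. The highest siFOXA1 score, 3100, was shared by 16 sites, 8 of them on chromosome 8, 6 on chromosome 4 and 2 on chromosome 5. The first 5 by chromosome name and position form a chain on chromosome 4 from chr4:190991422-190994304 to chr4:191004482-191007499. Their siControl scores were between 138.8 and 208.6, and a siFOXA1 peak of 16402 bp spanned 3 of them. All 5 were held by both stereoprobe lists and by no other list. With WX-02-23 the third of them, chr4:190997980-191000734, ranked 4658 of 17217.

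Among sites called in none of the 10 other lists, the 3 with the highest siFOXA1 scores lay on chromosome 8. They were chr8:86816641-86818916 with a siFOXA1 score of 3100, chr8:86824663-86827205 with 2437.61 and chr8:86560299-86564038 with 1678.29. Their siControl scores were 92.5, 113.6 and 188.1. The 3 sites with the lowest siControl scores were chr22:16192772-16193406 (90.3), chr5:14634187-14634758 (90.9) and chr8:86772396-86775437 (91.9), and none of the 10 other lists held them.

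Weighted for score, surviving sites were narrower than lost peaks, and by decile this held from the seventh upward. Their median width was 939 bp (922 to 961 bp), against 1086 bp for weighted lost peaks. In the top decile the medians were 1016 bp (1002 to 1036 bp) and 1223 bp (1208 to 1237 bp), and in the ninth decile 810 and 989 bp. Without weighting for score the order is the other way, since lost peaks are mostly weak and had a median of 723 bp. In the lower 7 deciles the medians of surviving sites lay between 572 and 781 bp. The medians lay above those of lost peaks in deciles 1 to 6, counted from the lowest, as at 781 against 654 bp in decile 4. In decile 7 the order was the other way, at 626 against 786 bp. The 95% intervals overlapped in deciles 1, 2, 5 and 6. A few surviving sites were very wide: 9 exceeded 5000 bp, against 2 of the 32809 lost peaks. None of the 9 was called in a doxycycline list, as held for 81.0% of all surviving sites and 61.5% of all siControl peaks. The widest was chr19:36778240-36793389, at 15150 bp. The adjoining chr19:36770634-36778231, at 7598 bp, is also among the 9 and has the same siFOXA1 score, 272.1. The 9 are therefore not all separate places.

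They also stood further from other siControl peaks. The median gap to the nearest siControl peak was 26424.5 bp (23700 to 29197 bp), against 17543 bp for weighted lost peaks. No other siControl peak lay within 100 kb of 171 surviving sites (13.1%, 11.3 to 15.0%), against 7.68% of weighted lost peaks. In the ninth decile of score the median gaps were 35422 and 19649 bp, and in the top decile 29091.5 and 15446 bp. For the 908 sites called in all parental and no doxycycline lists the median gap was 36069.5 bp, and for the 139 called everywhere it was 17569 bp. The difference between the medians was 8881.5 bp, and between 13571 and 21069 bp under the 5 alternatives that moved it. In the lowest 4 deciles the order turned round, with median gaps of 2432 to 4001 bp at surviving sites and 21283 to 22940 bp at lost peaks.

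**Figure D4:**
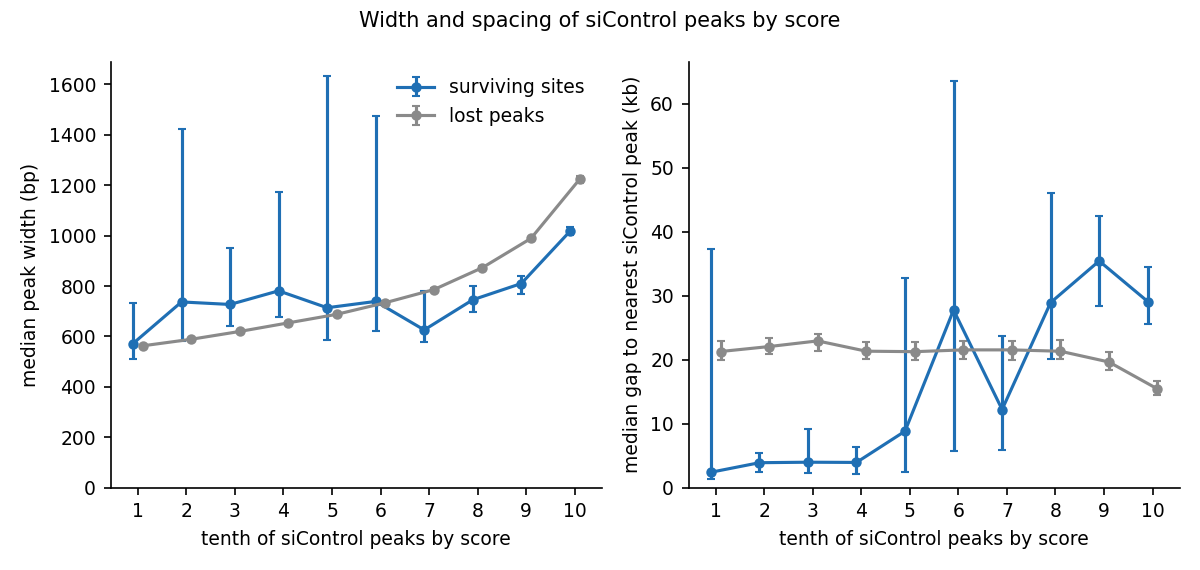
Median width in bp (left) and median gap to the nearest other siControl peak in kb (right) by decile of siControl score, for surviving sites (blue) and lost peaks (grey), with 95% order-statistic intervals. In the top 3 deciles surviving sites are narrower and lie further apart, and in the lowest 4 deciles their gaps are far shorter than those of lost peaks.

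Many weak surviving sites lay in runs. In the lowest 4 deciles 52 of 102 did, with a median gap of 2490.5 bp to the nearest siControl peak, while the others had a median gap of 8126 bp, also shorter than the 21869 bp of lost peaks. The median gap from a surviving site to the nearest other one was 642921 bp, but 131 sites on 12 chromosomes had 2 or more others within 100 kb, 75 of them in the lower 7 deciles of score. Of these 131 sites 103 were called with WX-02-23 (78.6%) and 92 with WX-02-43 (70.2%), against 43.2% and 50.5% of all siControl peaks. With DMSO 60 (45.8%) and with PladB 73 (55.7%) were called, against 78.5% and 84.6%. A window of 100 kb held up to 16 of the sites, so these counts are not of independent sites. All 4 other parental lists held 56 of the 131 and 1100 of the 1179 remaining sites, against 34.4% of all siControl peaks. Of the 1179, 1125 each were called with WX-02-23 and with DMSO. Chromosome 1 held 37 of the sites in runs, chromosome 19 held 27, chromosome 8 held 15 and chromosome X held 13.

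The densest run lay on chromosome 1 from 144160159 to 144221345, with 16 surviving sites among 16 siControl peaks. Their siControl scores were between 95.8 and 254.3 and their siFOXA1 scores between 128.7 and 797.8. WX-02-23 called 8 of them, WX-02-43 5, PladB 2, and DMSO and the engineered lists none. The next ran on chromosome 8 from 86728205 to 86827205, with 14 sites among 14 siControl peaks, up to 9902 bp wide, and siFOXA1 scores from 845.7 to 3100. The third, on chromosome 1 from 148254853 to 148327724, held 13 sites among 14 siControl peaks, of which 12 were called with WX-02-23, 6 with WX-02-43 and 2 with DMSO. In these 3 runs nearly every siControl peak survived, and no site was called in any engineered list.

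A run on chromosome X differed from these. From 114959481 to 115005397, 13 of 23 siControl peaks survived, all 13 were called in all 4 other parental lists, and 10 were called in at least 1 doxycycline list. Their siControl scores were between 161.9 and 1311.24, and their siFOXA1 scores between 92.1 and 182.5. It held as many sites as the third run above and was placed after it by the sum of siFOXA1 scores.

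Chromosome X as a whole held more surviving sites than the scores of its peaks gave. Of its 1003 siControl peaks 92 survived (9.17%, 7.54 to 11.1%), where the survival of each score decile gave 31.45, a ratio of 2.93 (2.40 to 3.55). In the top 3 deciles 84 of 269 peaks on X survived (31.2%, 26.0 to 37.0%). With expected numbers taken within score deciles and within peaks called or not called in a doxycycline list, the ratio was 1.87. The chromosome held 7.02% of surviving sites and 1.67% of weighted lost peaks, a ratio of 4.20. The copy number of X in these cells was not analysed here.

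Sites on X followed the pattern of the first kind. With DMSO 91 of the 92 were called and with WX-02-23 89, against 184 and 153 of the 185 lost X peaks in the top 3 deciles. With doxycycline and DMSO 2 were called in WT and 2 in C258A cells, against 100 and 41 of those lost peaks. With doxycycline and WX-02-23 the counts of surviving X sites were 11 and 9, against 75 and 66. These lost peaks were not weighted for score, and their median siControl score was 584.8 against 904.1 for the surviving X sites. The strongest, chrX:11958461-11959443, had a siControl score of 2229.24 and a siFOXA1 score of 544.4, and ranked 183 with WX-02-23 and 1282 with DMSO.

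Among autosomes the ratio of observed to expected sites ran from 0.35 on chromosome 21 (5 sites) to 1.32 on chromosome 19 (33 sites). Its counting interval excluded 1 on 6 autosomes, above 1 on chromosomes 4 and 8 and below 1 on 7, 9, 12 and 21. Chromosome 12 had 50 sites against 79.6 expected. On chromosomes 4 and 8, 10 and 15 sites belonged to runs. Chromosome Y held 13 surviving sites among 219 siControl peaks, against 7.06 expected (ratio 1.84, 1.09 to 3.07), but 13.7 were expected within score deciles and doxycycline calls together (ratio 0.951).

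**Figure D5:**
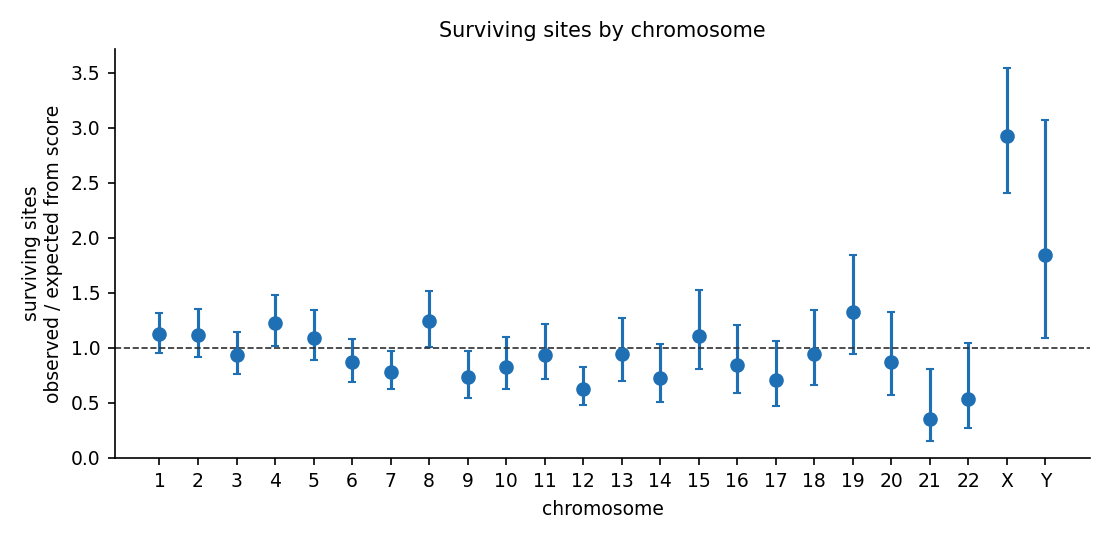
Ratio of observed surviving sites to the number expected from the siControl scores of each chromosome's peaks (y axis) by chromosome (x axis), with 95% counting intervals and a dashed line at 1. Chromosome X stands at 2.93, and the autosomes lie between 0.35 and 1.32.

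Weak surviving sites lay more often near long stretches without peaks and near the outermost peaks of a chromosome. The longest stretch of each chromosome without a peak in any of the 12 lists was found for this. Of the 187 sites in the lower 7 deciles, 11 (5.88%, 3.32 to 10.2%) lay within 1 Mb of such a stretch, against 1.47% of weighted lost peaks, and 12 (6.42%, 3.71 to 10.9%) within 1 Mb of the first or last peak of the chromosome, against 1.97%. Of those 12 sites, 6 belonged to a single run at the end of chromosome 4, and of the 11 near a stretch 3 belonged to a run on the same chromosome, so these counts are not of independent sites. Among the 1123 sites in the top 3 deciles the shares were 1.42% against 1.20% and 1.07% against 1.62%, and their intervals overlapped.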

How the data were processed

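Each deposited file lists the peaks of 1 FOXA1 ChIP-seq library, without a header, in 5 columns: chromosome, start, end, name and the authors' score for each peak. The submitters' processing notes name bcl2fastq, Bowtie2 and the build hg19, with no versions. Peak names begin with MACS, per the files. The caller's version, thresholds, control and the definition of the deposited score are not given in the sources used here. Lists were not pooled over libraries. No genome or annotation of hg19 was used here, so planned motif and gene analyses were not run.

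Starts were read as counted from 0 and are printed counted from 1. Overlaps were found with bedtools 2.31.1 (1 bp). Lost peaks were weighted within 10 score bins of equal size to the surviving sites' distribution, and 20 bins and nearest-score matching were alternatives. The weighted lost peaks had a median score of 1028.52, so a small imbalance remains, against 1078.11 under nearest-score matching. The functions were tested on simulated data. No direction is read from the differences of about 5 points or less in the parental lists, because their sizes moved under the alternatives. Under nearest-score matching they were -5.88 (DMSO), -4.66 (PladB) and 2.52 points (WX-02-43). What causes these differences was not tested. Shares carry 95% Wilson intervals (scipy 1.17.1), weighted shares a normal approximation, differences Newcombe's combination and medians order-statistic intervals. Samples were grouped by their titles.

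Peaks named by position are the 5 surviving sites with the highest siControl scores and the 5 with the highest siFOXA1 scores, the 3 strongest lost peaks, the 3 surviving sites in no other list with the highest siFOXA1 scores, the 3 with the lowest siControl scores, and the 3 windows of 100 kb holding the most. Other named sites were chosen after their values were seen. The sites and these lists were chosen with earlier results of these data known.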

Additional observations from a re-analysis of the deposited data

Results flagged for a closer look

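The share of surviving sites called moved in opposite directions with WX-02-23 between cell types, with 1 library per condition and no test of the difference. The WX-02-23 share minus the DMSO share was -1.91 points in WT and 3.74 points in C258A cells, both with doxycycline, and 3.28 points in parental cells. The lists themselves differ in length: 31735 and 25849 peaks in WT, 13299 and 20609 in C258A, and 30557 and 17217 in parental cells. At an equal length of 8575 peaks the DMSO and WX-02-23 shares were 10.4% and 9.39% in WT, 9.77% and 10.0% in C258A, and 76.3% and 87.3% in parental cells. Score-weighted lost peaks changed by -11.1, 11.8 and -13.3 points in the same comparisons at the deposited lengths.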

How the results depend on the processing

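Of 167 alternative values over 17 results, 92 stayed within the 95% interval of the reported value (for the number of sites, within 1.5 times of it), 74 lay outside and 1 changed direction. The 66 differences in the engineered lists all stayed below 0. Differences are surviving sites minus weighted lost peaks, in percentage points for calls, with the engineered lists in the order WT and C258A without doxycycline, WT with DMSO and WX-02-23, C258A with DMSO and WX-02-23. Where a list is not named its value did not move.

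With a reciprocal overlap of 50%, 819 sites survived (2.40%), the width difference was -203 bp, the gap difference 14206 bp and that in sites with no neighbour within 100 kb 7.85 points. Calls in the other lists, held to the same overlap, differed by 17.7 (WX-02-23), 6.81 (WX-02-43), -7.32 and -18.2 without doxycycline, -29.1 (WT, WX-02-23), -20.5 and -30.2 (C258A). With the siFOXA1 list reduced to its higher-scoring 50%, 856 survived (2.51%), the median siControl score was 1235.11, and calls differed by 8.88 (WX-02-23), -36.1 (WT, no doxycycline), -62.5, -52.4, -42.8 and -51.4. With the siControl list so reduced, 6.95% survived, the median score was 1165.61, the width difference -183 bp, the gap difference 21069 bp and no neighbour 11.2 points. Calls then differed by -1.57 (DMSO), -1.04 (PladB), 7.99 (WX-02-23), 1.14 (WX-02-43), -36.8 (WT, no doxycycline), -60.9, -51.5, -41.6 and -49.5.

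With nearest-score matching the width difference was -171 bp, the X ratio 5.11 and the C258A doxycycline DMSO difference -38.7. At equal list length calls differed by -3.03 (PladB), 21.7 (WX-02-23), 8.59 (WX-02-43), -36.0 (C258A, no doxycycline), -30.7, -25.4, -27.0 and -27.4.

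The next 3 were added after seeing the data. With DMSO peaks as the base the median score was 862.2, the width difference -192 bp, the gap difference 18230 bp and no neighbour 9.68 points. Calls differed by 0.382 (PladB, the change of direction), 15.7 (WX-02-23), 5.36 (WX-02-43), then -26.1, -23.5, -53.6, -43.1, -31.8 and -41.0. Without runs of surviving sites 3.49% survived, the median score was 1132.76, the width difference -176 bp and the gap difference 14747 bp. Calls differed by -2.24 (DMSO), -2.17 (PladB), 9.27 (WX-02-23), -49.2 (WT, WX-02-23) and -46.8 (C258A, WX-02-23). Among siControl peaks in all 4 other parental lists the width difference was -191.5 bp, the gap difference 13571 bp, and calls differed by -37.4 (WT, no doxycycline), -62.1, -54.5, -43.1 and -51.8. The cause of these movements was not tested.

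No paired analysis was possible because each group has 1 library, and leaving out a library was not possible for the same reason. Read depth is unknown, so a site that was not called is not shown to be unbound, and the siFOXA1 list is the shortest of the 12.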

Other observations

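A few surviving sites ranked far higher with siControl than with DMSO. Among the 750 surviving sites in the top decile of siControl scores, 4 had no DMSO peak or one in the lower 50% of DMSO scores, against 1 of the 2661 lost peaks of that decile. All 4 lay on chromosome 6 between 74134808 and 74161952. The strongest, chr6:74161023-74161952, had a siControl score of 3100 (rank 21, shared by 143 tied peaks) and a siFOXA1 score of 1081.66 (rank 49 of 3018). It ranked only 23320 of 30557 with DMSO, 8950 with PladB, 2074 with WX-02-23 and 1593 with WX-02-43. The site chr6:74134808-74135539 had a siControl score of 2532.5 and a siFOXA1 score of 275.6, and of the 10 other lists only WX-02-23 held it, at rank 8652. The remaining sites, with siControl scores of 1676.54 and 1380.67, were called with both stereoprobes and neither with DMSO nor with PladB. No engineered list held any of the 4. They were noticed in the data and not tested.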
